A study of Homo sapiens with 24 samples.

Results

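RNA polymerase I transcribes the ribosomal RNA precursor and RNA polymerase III transcribes 5S ribosomal RNA, transfer RNAs and other short RNAs. The genes described here encode the subunits of these enzymes and the factors that bring them to their genes, 35 protein-coding genes of 60668 rows in the count table. They were chosen by symbol (every POLR1 and POLR3 subunit, BRF1, BRF2, BDP1, GTF3A, GTF3C1 to GTF3C6, UBTF, RRN3, TAF1A to TAF1D and MAF1), a rule that uses no measured value. The choice was made with earlier results of these data known. All 35 were among the 22158 genes with enough counts to be tested, and their counts ran from 868 to 34335 per library. By role they were 6 subunits of RNA polymerase I alone, 2 subunits of both enzymes, 6 RNA polymerase I factors, 10 subunits of RNA polymerase III alone, TFIIIA (1 gene), TFIIIB (3), TFIIIC (6) and the repressor MAF1. One further row that matched the symbol rule, POLR1HASP, was a pseudogene and was left out.

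The libraries were poly(A)-selected RNA from 3D cultures on Matrigel of MCF-10A, an immortalised human mammary epithelial line. One line was wild-type (called parental here) and the other carried MYC.ER, in which MYC is fused to oestrogen receptor sequence and becomes active when 4-hydroxytamoxifen (4-OHT) is added. Both lines received 1 µM 4-OHT for 8, 24 or 48 h, or none (0 h), within days 3 to 5 of culture, and all were collected together on day 5. Each of the 8 groups had 3 libraries, and whether these were separate cultures beyond wells seeded in triplicate is not given in the sources used here, so p-values measure the spread between these libraries. The labels give neither the species of the receptor part, nor the promoter that drives the fusion, nor whether the MYC-ER line is 1 clone. The MYC-ER groups therefore differ by time of 4-OHT within 1 line, and the parental groups carry the same 4-OHT without the fusion.

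As background, MYC is known to promote ribosome production through all 3 nuclear RNA polymerases. Ribosomal DNA is bound by UBTF and by SL1, a complex of TBP with the TAF1 proteins, and RRN3 joins RNA polymerase I to them. On most RNA polymerase III genes TFIIIC recognises the promoter, TFIIIB (BRF1 or BRF2 with BDP1 and TBP) is placed beside it and recruits the enzyme, and MAF1 represses the enzyme when growth signals fall. The transcripts made by RNA polymerases I and III are not polyadenylated, so their output was not measured in these libraries.

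Library totals ran from 136860029 to 182438505 counts, a 1.33-fold range, and a count of 0 allowed up to 0.0219 CPM (counts scaled to library size) in the smallest library. Levels are given in CPM after scaling by TMM, edgeR's trimmed-mean factors. The MYC row stood at 378 to 394 CPM in MYC-ER cells at 0 h and 793 to 797 CPM at 8 h, then 312 to 330 CPM at 24 h and 244 to 253 CPM at 48 h, against 443 to 599 CPM in all parental libraries. Whether reads of the fusion fall in that row was not tested. The labelled epithelial identity was checked on markers. All 6 basal mammary markers were present, KRT5 at 6763 to 14120 CPM, KRT14 at 603 to 10880 CPM and the lowest, TP63, at 76.8 to 169 CPM, while CDH5 and CD3E had 0 counts in all 24 libraries, PTPRC at most 2 and COL3A1 at most 2. EPCAM varied most of the epithelial markers, from 1.73 to 77.8 CPM. Of 5 fibroblast markers COL1A1 was high at 53.6 to 220 CPM and the others were at most 1.65 CPM. Of 3 endothelial markers PECAM1 reached 2.32 CPM, and of 4 leukocyte markers CD14 reached 9.03 CPM. At 8 h in MYC-ER cells PECAM1 rose by a log2 change of 3.15, and COL1A1 and CD14 fell by 1.95 and 0.34. Of the basal markers 3 rose and 3 fell (log2 changes -0.81 to 2.43, highest for KRT17), and 3 of 4 epithelial markers rose, EPCAM by 3.62 and KRT18 by 2.37. The part of these markers in the results on the members was not tested.

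The first comparison asks how these genes change when the fusion is activated. At 8 h, 24 of the 35 members (68.6%) were higher than at 0 h and 6 (17.1%) were lower, where 32.2% of all genes tested were higher and 35.4% lower. Genes were called higher or lower by edgeR's quasi-likelihood test with a Benjamini-Hochberg adjusted p below 0.05. The median log2 change was 0.76 over the members and -0.10 over all 22158 genes. The replicate values of 25 members lay wholly above those at 0 h and of 7 wholly below, where 34.4% and 39.1% of all genes did so. By role, all 6 RNA polymerase I subunits, 9 of 10 RNA polymerase III subunits and TFIIIA rose, while TFIIIB and TFIIIC were mixed. In bulk RNA, fewer cells of a kind and less RNA per cell cannot be told apart, and all changes are shares of each library's RNA. Of the 30 calls at 8 h, 29 held under every alternative scaling, filter and tool that was run and without any 1 library. The exception was UBTF. Upper-quartile scaling, which moved the median of all genes by -0.14, gave 24 higher and 7 lower.

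**Figure D1:**
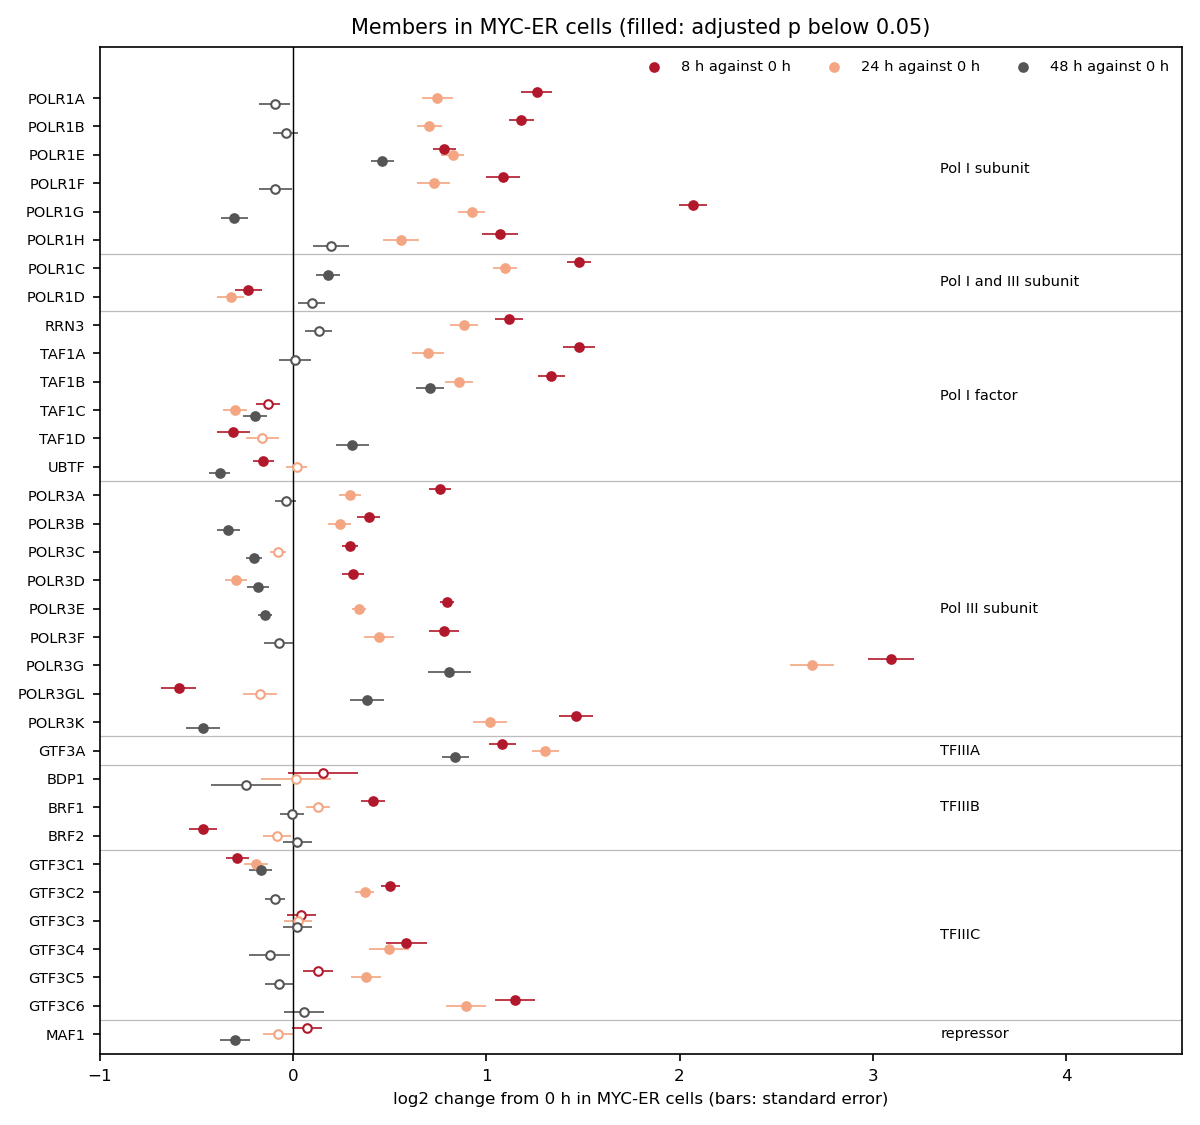
Log2 change from 0 h (horizontal axis) of 34 of the 35 members (vertical axis, grouped by role) in MYC-ER cells at 8, 24 and 48 h of 4-OHT, with standard errors as bars and filled points for edgeR adjusted p below 0.05. At 8 h most members lie to the right of 0 as filled points, with POLR3G farthest at 3.09, and the 48 h points lie close to 0 for most members.

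The promoters were read for CACGTG, the canonical E-box to which MYC binds with MAX. RefSeq windows (build GRCh38.p14, 250 bases before to 50 after the start) were matched by symbol for 29 of the 35 members. Among the 6 members without an entry were BRF2, MAF1, POLR1E, POLR3D and POLR3G. CACGTG, which reads the same on both strands, was in 7 of the 29 windows (24.14%), against 7.435% of 27305 windows in the table and 8.881% of those of protein-coding genes. The looser CANNTG, which holds CACGTG within it, was in 62.07% of the members' windows and 68.94% of all. All 7 members with CACGTG were called higher at 8 h in MYC-ER cells (log2 changes 0.29 to 2.07, median 0.76), where 68.6% of the 35 members and 32.2% of all genes were. How many of all genes with CACGTG were called higher was not tested. Of the 22 windows without it, 13 belonged to genes called higher, 5 lower and 4 neither (median 0.60). Interaction values at 8 h had medians of 0.72 and 0.69 in these groups. At 24 h, 6 of the 7 and 13 of the 22 were higher than at 0 h (against 30.4% of all genes). The medians were 0.37 with the motif and 0.41 without. At 48 h none of the 7 was higher and 3 were lower. Of the 22 without it 5 were higher and 5 lower, where 23.4% of all genes were higher and 20.7% lower. No binding was measured here, and a match is only a description of the sequence.

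The 7 sites, all those found in the members' windows, are shown with 12 bases on either side. They read in the sense direction of each gene, with the CACGTG in capitals. They lie at chr19:45406620-45406649 (POLR1G, first motif base 12 before the start), chr6:110958552-110958581 (GTF3C6, 142 before), chr16:22297396-22297425 (POLR3E, 1 before), chr10:78029533-78029562 (POLR3A, minus strand, 35 before), chr9:132669988-132670017 (GTF3C4, 35 before), chr2:27356850-27356879 (GTF3C2, minus strand, 103 before) and chr1:145823992-145824021 (POLR3C, 196 before).
POLR1G: cccctttggatcCACGTGgtctgcaacctg
GTF3C6: gtggcgagtctcCACGTGggtaccggcgct
POLR3E: cccgctccccccCACGTGtccgccggagtt
POLR3A: agaggaagcggaCACGTGggacactctacg
GTF3C4: ggcccgggacccCACGTGggacgcgcgagg
GTF3C2: ccggaccaagcaCACGTGtttaccttgtgc
POLR3C: gcccgcgtcggtCACGTGagttggccaggc
The bases beside the motif differed among the 7 genes, and the motif stood within 35 bases of the start in 4 of them.

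Whole windows are given for POLR1G and POLR3E, whose motif lies closest to the start, and for POLR1C, which rose by 1.48 at 8 h and has no CACGTG. They are chr19:45406394-45406693, chr16:22297159-22297458 and chr6:43516839-43517138, all on the plus strand of GRCh38.p14.
POLR1G: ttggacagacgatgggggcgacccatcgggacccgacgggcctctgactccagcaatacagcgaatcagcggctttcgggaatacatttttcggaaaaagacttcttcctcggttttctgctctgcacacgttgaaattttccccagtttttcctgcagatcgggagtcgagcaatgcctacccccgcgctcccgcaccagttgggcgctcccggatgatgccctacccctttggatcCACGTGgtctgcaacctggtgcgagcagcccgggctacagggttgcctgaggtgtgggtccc
POLR3E: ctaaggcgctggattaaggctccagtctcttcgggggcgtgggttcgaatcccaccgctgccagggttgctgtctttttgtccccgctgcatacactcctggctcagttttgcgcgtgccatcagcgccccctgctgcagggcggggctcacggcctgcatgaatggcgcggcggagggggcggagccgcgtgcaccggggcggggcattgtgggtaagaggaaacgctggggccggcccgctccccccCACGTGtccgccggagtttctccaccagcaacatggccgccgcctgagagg
POLR1C: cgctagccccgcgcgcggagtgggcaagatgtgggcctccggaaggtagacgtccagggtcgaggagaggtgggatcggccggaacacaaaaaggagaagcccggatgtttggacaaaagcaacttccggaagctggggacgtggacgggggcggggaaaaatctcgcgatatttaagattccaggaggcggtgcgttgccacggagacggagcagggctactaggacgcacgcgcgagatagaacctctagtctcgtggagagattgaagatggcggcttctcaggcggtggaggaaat
The level of POLR3E, with its motif at the start, was 52.0 to 53.6 CPM at 0 h and 90.2 to 92.3 CPM at 8 h in MYC-ER cells, and 70.5 to 81.7 CPM in all parental libraries up to 8 h.

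Among the subunits that only RNA polymerase I has, POLR1G (also CD3EAP or PAF49, part of the heterodimer that stimulates the enzyme) moved most. It was at 13, 12.6 and 13.1 CPM at 0 h and at 57.5, 56.4 and 48.2 CPM at 8 h in MYC-ER cells. The 2 groups were far apart, and the log2 change was 2.07 (SE 0.07, edgeR adjusted p 2.18e-16). Its partner POLR1E (PAF53) moved least of the 6, from 41.0, 41.7 and 41.5 CPM to 70.8, 71.6 and 71.2 CPM, a log2 change of 0.78 (SE 0.06, edgeR adjusted p 1.61e-10). In GENCODE v29, 48.4% of the exon bases of POLR1G also lie in exons of ERCC1, a DNA repair gene on the other strand. ERCC1 was itself higher at 8 h, by a log2 change of 1.30 (SE 0.07, edgeR adjusted p 1.79e-13), at a mean of 62.4 CPM before and 154 CPM after. Whether the counting used strand is not given in the sources used here, so the share of the POLR1G change that comes from ERCC1 reads was not tested. At 24 h POLR1G was still higher, by a log2 change of 0.92, while ERCC1 was at -0.04 (edgeR adjusted p 0.617).

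POLR1A, the largest subunit, which forms the catalytic centre with POLR1B, went from 91.6, 94.5 and 89.6 CPM at 0 h to 218, 222 and 221 CPM at 8 h. At 24 h it was at 165, 147 and 150 CPM, and at 48 h at 83.8, 89.4 and 84.8 CPM, just under the 0 h values. The log2 change was 1.26 at 8 h (SE 0.08, edgeR adjusted p 5.99e-12) and -0.10 at 48 h (edgeR adjusted p 0.362). POLR1B rose by 1.18, the stalk subunit POLR1F (TWISTNB) by 1.09 and the small zinc-binding subunit POLR1H (ZNRD1) by 1.07, all on the log2 scale. Per kilobase of exon, POLR1H had the highest level of the 6 at 8 h, 32.1 CPM per kb ± 1.09 (SD, n = 3). With the longest transcript as length its level was 7.56 CPM per kb, so that place depends on the gene model.

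POLR1C and POLR1D form the assembly platform that both enzymes share, and at 8 h in MYC-ER cells they moved in opposite directions. POLR1C was at 23.1, 24.0 and 24.5 CPM at 0 h and at 67.7, 63.9 and 68.3 CPM at 8 h in MYC-ER cells. POLR1D was at 178, 182 and 188 CPM at 0 h and at 158, 154 and 154 CPM at 8 h. Neither pair of groups overlapped, and the log2 changes were 1.48 (SE 0.06, edgeR adjusted p 6.66e-15) for POLR1C and -0.23 (SE 0.07, edgeR adjusted p 0.00555) for POLR1D. Per kilobase of exon, POLR1D was above POLR1C at 0 h, 19.4 ± 0.52 against 8.18 ± 0.24 CPM per kb (SD, n = 3), and below it at 8 h, 16.5 ± 0.27 against 22.8 ± 0.82. With the longest transcript as length, POLR1D stayed above POLR1C at 8 h as well, 33.9 against 27.3 CPM per kb, so the order at 8 h depends on the gene model.

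The RNA polymerase I factors divided evenly. TAF1A, a TBP-associated subunit of SL1, was at 6.93, 8.30 and 7.49 CPM at 0 h and at 20.8, 21.4 and 21.2 CPM at 8 h in MYC-ER cells. TAF1B, the SL1 subunit related to TFIIB, was at 10.2, 10.6 and 11.1 CPM at 0 h and at 26.8, 27.4 and 26.1 CPM at 8 h. RRN3 (TIF-IA), which makes the enzyme competent to initiate, was at 42.1, 44.9 and 42.0 CPM at 0 h and at 94.0, 95.8 and 89.9 CPM at 8 h. In each of these 3 genes every 8 h library was above every 0 h library, with log2 changes of 1.48 for TAF1A, 1.34 for TAF1B and 1.12 for RRN3 (edgeR adjusted p 5.80e-13, 2.84e-13 and 5.94e-12). RRN3 has annotated pseudogene copies (RRN3P1 and RRN3P3), as have GTF3A, POLR3G, POLR3K, POLR3D and BDP1. How reads that fit several places were counted is not given in the sources used here, so the levels of these 6 genes are uncertain to that extent.

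The other SL1 subunits and UBTF were not called higher. UBTF, the architectural protein of active ribosomal DNA, was at 128, 126 and 128 CPM at 0 h and at 117, 110 and 116 CPM at 8 h. TAF1D was at 88.9, 92.9 and 91.8 CPM at 0 h and at 70.0, 77.8 and 73.3 CPM at 8 h. TAF1C was at 83.5, 77.3 and 80.7 CPM at 0 h and at 70.4, 75.1 and 75.0 CPM at 8 h. The 8 h values of all 3 genes lay below those at 0 h. The log2 changes were -0.15 for UBTF (edgeR adjusted p 0.0171), -0.31 for TAF1D (0.00342) and -0.13 for TAF1C (0.0663, not past the threshold). Of the TAF1D exon bases, 6.6% also lie in exons of C11orf54 on the other strand. C11orf54 had a log2 change of -1.235 at 8 h (edgeR adjusted p 1.22e-10), at means of 17.3 CPM before and 7.36 CPM after. The part of C11orf54 reads in the TAF1D change was not tested. UBTF was not called with DESeq2 size factors, with DESeq2's Wald test or without MYC-ER 8 h replicate 2 (log2 change -0.13, edgeR adjusted p 0.0821). At 24 h UBTF was at 130, 128 and 128 CPM, near the 0 h values. At 48 h it was lower than at 0 h, by a log2 change of -0.38 (SE 0.05, edgeR adjusted p 5.92e-06), at 98.1, 97.4 and 98.0 CPM.

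RNA polymerase III showed the largest single change of all members. POLR3G, the form of the RPC32 subunit that is known from stem and tumour cells, was at 5.98, 5.47 and 6.10 CPM at 0 h and at 50.2, 55.4 and 44.3 CPM at 8 h in MYC-ER cells, then at 40.0, 37.0 and 35.9 CPM after 24 h. It had come down to 10.1, 10.2 and 10.4 CPM by 48 h. Every treated library was above every 0 h library, and the log2 changes were 3.09 (SE 0.12, edgeR adjusted p 8.33e-16), 2.69 (SE 0.12, 8.64e-15) and 0.81 (SE 0.11, 3.43e-06). The 8 h change corresponds to 8.54-fold. Parental POLR3G was at 12.8, 18.3 and 12.5 CPM without 4-OHT and, in order of time with it, at 24.5, 27.1 and 26.8, at 26.6, 25.4 and 24.4, and at 24.1, 20.7 and 23.4 CPM. The parental libraries with 4-OHT were all above those without, by log2 changes of 0.85, 0.81 and 0.65. The difference between the lines' changes was 2.25 at 8 h (SE 0.16, edgeR adjusted p 5.83e-11).

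POLR3GL encodes the other form of RPC32, the one known from most adult tissues. In MYC-ER cells it was at 10.5, 12.4 and 12.6 CPM before 4-OHT, and then at 8.19, 7.68 and 7.68 (8 h), 10, 10.6 and 10.9 (24 h) and 16.2, 15.1 and 15.0 CPM (48 h). It was lowest at 8 h and highest at 48 h, with log2 changes from 0 h of -0.59 (SE 0.09, edgeR adjusted p 4.86e-06) and 0.38 (SE 0.09, 0.00130). In parental cells its 12 values lay between 6.73 and 10.8 CPM. At 8 h POLR3GL was the 1 subunit of RNA polymerase III alone that fell in MYC-ER cells. POLR1D, a subunit of both enzymes, fell as well.

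The log2 ratio of POLR3G to POLR3GL (pseudocount 0.1 CPM) followed from these values. In MYC-ER cells it was -1.0 ± 0.18 (SD, n = 3) before 4-OHT, 2.65 ± 0.17 after 8 h, 1.83 ± 0.14 after 24 h and -0.58 ± 0.08 after 48 h. The parental ratio, in the same order, was 0.75 ± 0.44, 1.38 ± 0.14, 1.65 ± 0.16 and 1.6 ± 0.20. The MYC-ER ratio thus lay below every parental library at 0 h and 48 h and above every one at 8 h. Each change from 0 h (3.65, 2.83 and 0.42 in MYC-ER cells, 0.62, 0.89 and 0.85 in parental cells) had an exact permutation p of 0.1, two-sided, the smallest that 3 against 3 libraries allow. Per kilobase of exon POLR3G went from 1.65 ± 0.09 to 14.1 ± 1.6 CPM per kb between 0 h and 8 h, and POLR3GL from 10.2 ± 0.96 to 6.73 ± 0.25. In parental cells at 0 h the levels were 4.08 ± 0.92 for POLR3G and 7.26 ± 0.75 for POLR3GL. The order at 0 h and at 8 h in MYC-ER cells was the same with the longest transcript as length. Of the POLR3GL exon bases, 13.7% also lie in a read-through gene model on the same strand.

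**Figure D2:**
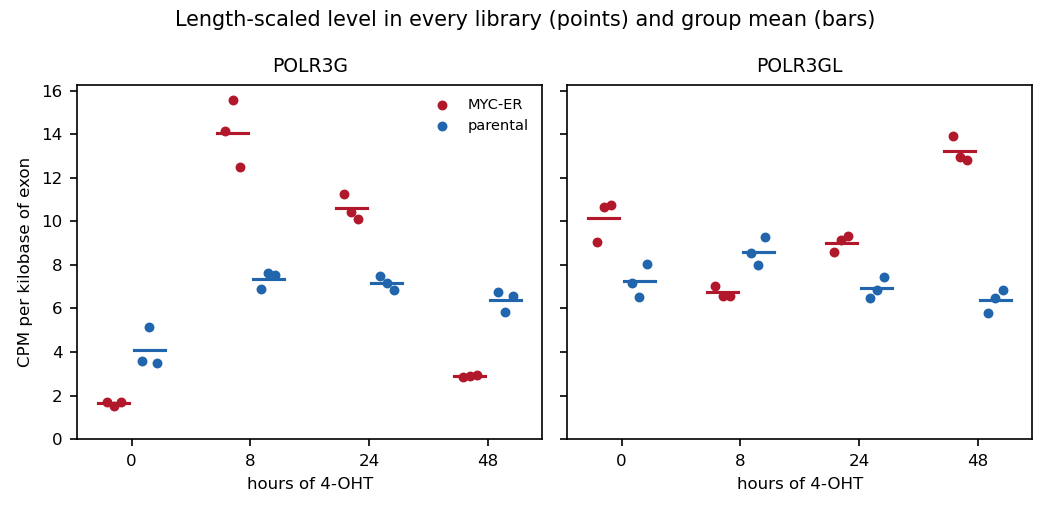
Level of POLR3G (left) and POLR3GL (right) in CPM per kilobase of exon (vertical axis) against hours of 4-OHT (horizontal axis) for MYC-ER (red) and parental (blue) libraries, with points for libraries and bars for group means. POLR3G in MYC-ER cells has a mean of 1.65 at 0 h and 14.1 at 8 h, and POLR3GL moves from 10.2 to 6.73.

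POLR3K, the RNA polymerase III subunit used in termination, was at 7.75, 8.87 and 8.92 CPM at 0 h and at 23.6, 23.4 and 23.5 CPM at 8 h in MYC-ER cells. At 24 h it was at 17.3, 17.5 and 16.9 CPM. The 8 h and 24 h values were far above those at 0 h, and the 8 h log2 change was 1.47 (SE 0.09, edgeR adjusted p 2.13e-12). POLR3E, POLR3F and POLR3A (the catalytic largest subunit) rose by 0.80, 0.78 and 0.76, and POLR3B (the second catalytic subunit) and POLR3D by 0.39 and 0.31. POLR3C, which binds the RPC32 subunit, moved least, from 39.9, 43.2 and 41.5 CPM to 50.9, 49.9 and 51.9 CPM (log2 change 0.29, SE 0.04, edgeR adjusted p 2.02e-06). Its 8 h values did not overlap those at 0 h.

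TFIIIA, encoded by GTF3A, is the zinc-finger protein that binds the 5S gene. It went from 48.8, 49.3 and 50.7 CPM at 0 h to 111, 101 and 104 CPM at 8 h, and to 128, 122 and 118 CPM at 24 h in MYC-ER cells. At 48 h its values of 91.1, 89.8 and 85.4 CPM were still well above those at 0 h. The log2 changes were 1.08, 1.31 and 0.84 (SE 0.07 each, edgeR adjusted p 7.93e-12, 4.51e-13 and 2.09e-09), and the mean was highest at 24 h.

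The TFIIIB subunits each behaved differently at 8 h. BRF1, which serves tRNA and 5S genes, was at 33.9, 33.5 and 36.1 CPM at 0 h and at 45.8, 45.0 and 46.9 CPM at 8 h. BRF2, which replaces BRF1 on the U6 type of gene, was at 9.81, 9.94 and 9.86 CPM at 0 h and at 7.56, 6.68 and 7.22 CPM at 8 h. BDP1, which both forms share, was at 66.3, 74.8 and 63.9 CPM at 0 h and at 74.5, 82.3 and 71.1 CPM at 8 h. BRF1 rose by a log2 change of 0.41 (SE 0.06, edgeR adjusted p 4.84e-06), BRF2 was lower at -0.47 (SE 0.07, 9.39e-06), and the BDP1 values overlapped (0.15, SE 0.18, 0.462). Exons of ADGRA2 on the other strand cover 59.6% of the BRF2 exon bases, and ADGRA2 stood at means of 0.208 and 0.121 CPM in these groups. At 24 h and 48 h no TFIIIB subunit was called in MYC-ER cells.

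In TFIIIC, the 6-subunit complex that reads the internal promoter, GTF3C6 moved most. It was at 18.8, 21.9 and 19.6 CPM at 0 h and at 45.5, 40.9 and 47.4 CPM at 8 h (log2 change 1.15, SE 0.10, edgeR adjusted p 1.58e-09). GTF3C4 was at 70.8, 71.7 and 66.0 CPM at 0 h and at 103, 108 and 102 CPM at 8 h (log2 change 0.59, SE 0.11, edgeR adjusted p 4.48e-05). Both genes were clearly separated between the groups, and GTF3C2 rose by 0.50. GTF3C1, the largest subunit and a binder of the B box, was lower at 8 h, at 106, 106 and 110 CPM after 130.0, 135 and 129 CPM at 0 h (log2 change -0.29, SE 0.06, edgeR adjusted p 0.000213). GTF3C3, at 50.3, 51.3 and 48.8 CPM before and 51.8, 50.9 and 52.2 CPM after, overlapped between groups (0.04, edgeR adjusted p 0.634). GTF3C5 was at 0.13 (edgeR adjusted p 0.136) and was called higher only at 24 h, by 0.38.

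MAF1, the repressor of RNA polymerase III, was at 152, 149 and 158 CPM before 4-OHT, and then at 169, 152 and 163 (8 h), 150, 145 and 140 (24 h) and 128, 124 and 122 CPM (48 h). The 8 h values overlapped those at 0 h (log2 change 0.07, SE 0.08, edgeR adjusted p 0.419). At 48 h all 3 values were below all those at 0 h, a log2 change of -0.30 (edgeR adjusted p 0.00321), a call that was lost with library size alone. Parental MAF1 was at 194, 150 and 204 CPM at 0 h and at 126, 134 and 139 CPM at 48 h. It was called lower in parental cells at all 3 times with 4-OHT, and each of these calls was lost in 1 or more alternatives.

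**Figure D3:**
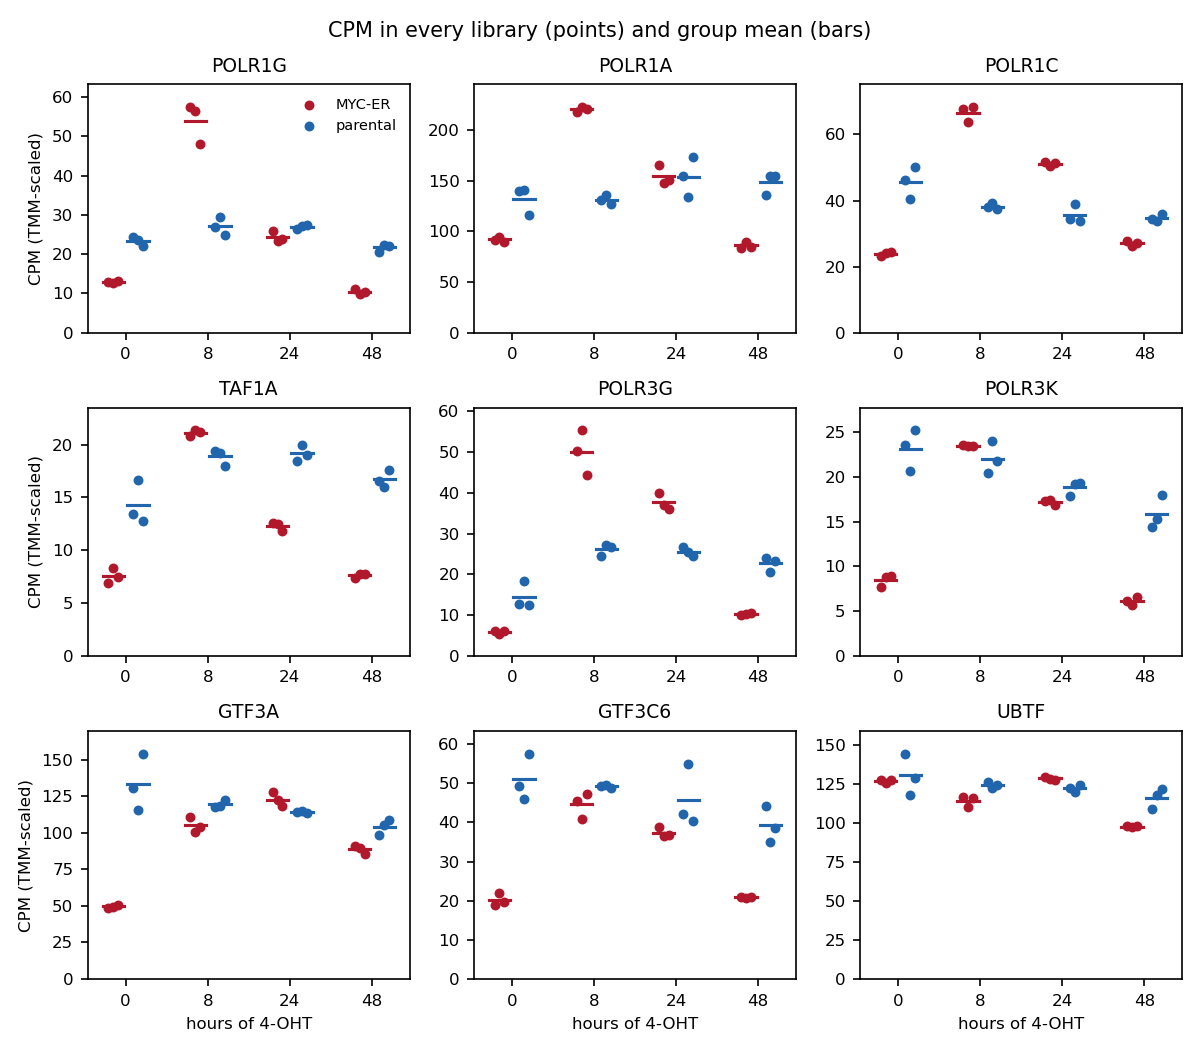
CPM (vertical axes, each from 0) of 9 members against hours of 4-OHT (horizontal axis) in every MYC-ER (red) and parental (blue) library, with bars for group means. POLR1G, POLR1A, POLR1C, TAF1A, POLR3G and POLR3K peak at 8 h in MYC-ER cells, GTF3A at 24 h, and UBTF has no peak at 8 h.

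Over all 35 members the MYC-ER mean was highest at 8 h in 25, at 24 h in 4, at 48 h in 4 and at 0 h in 2. The time of the highest mean was not counted over all genes. At 24 h, 22 of 35 members were higher than at 0 h (62.9%, against 30.4% of all genes) and 4 lower (against 31.2%). The comparisons at 8, 24 and 48 h share the 0 h libraries. The median log2 change was then 0.38 (all genes -0.02). POLR3D was lower at 24 h than at 0 h (log2 change -0.29, edgeR adjusted p 0.000130). Between 8 h and 24 h, 22 members fell and 5 rose (against 27.1% and 28.4% of all genes). The members that rose over this interval were POLR3GL, BRF2, GTF3C5, GTF3A and UBTF. Without MYC-ER 8 h replicate 2, 3 rose, and GTF3A and UBTF had edgeR adjusted p of 0.0521 and 0.0591. With 1 library left out, 18 to 23 members fell. The falls of GTF3C2, GTF3C6, POLR3B and TAF1C were each lost in 6 or 7 alternatives, among them fits without 1 library. With library size alone the split was 13 lower and 8 higher, and with upper-quartile scaling 17 and 8, settings that moved the median of all genes by 0.21 and 0.10 in this contrast. The median over the members was -0.25, and -0.05 with library size alone.

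From 24 h to 48 h, 24 members fell and 3 rose (against 25.5% and 28.2% of all genes), with a median log2 change of -0.45 over the members and 0.06 over all genes. POLR3G fell by 1.88, POLR3K by 1.49, POLR1G by 1.23 and POLR1C by 0.92 on the log2 scale. POLR3GL, TAF1D and POLR1D were the 3 that rose, by 0.55, 0.47 and 0.42. Of the 24 falls, 22 held in all alternatives. The calls for MAF1 and POLR3C were lost in 3 and 5 of them. Without MYC-ER 24 h replicate 1 or 48 h replicate 3 the edgeR adjusted p of MAF1 was 0.0726 or 0.0643. Without MYC-ER 24 h replicate 3 or 48 h replicate 1 or 2 that of POLR3C was 0.0531, 0.0861 or 0.0545. With upper-quartile scaling the split was 22 lower and 6 higher.

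At 48 h against 0 h, 8 members were higher and 10 lower (against 23.4% and 20.7% of all genes), with a median log2 change of -0.04. Among the higher were GTF3A, POLR3G, TAF1B, POLR1E, POLR3GL, TAF1D and POLR1C. The POLR1C call rested on single libraries. Without MYC-ER 0 h replicate 1 or 2 or 48 h replicate 1 or 3 its edgeR adjusted p was 0.0930, 0.0508, 0.0772 or 0.0623. Among the lower, GTF3C1 lost its call without MYC-ER 0 h replicate 2 or 48 h replicate 2 or 3. TAF1C lost its call without MYC-ER 0 h replicate 1. The calls of MAF1, POLR1G, POLR3C and POLR3D were lost with library size alone. GTF3A at 0.84, POLR3G at 0.81 and TAF1B at 0.71 were the highest. POLR3K, at 6.17, 5.73 and 6.57 CPM at 48 h, had the lowest log2 change, -0.47 (SE 0.09, edgeR adjusted p 0.000160). This split depended on the scaling, with 13 higher and 3 lower by library size alone, which moved the median of all genes by 0.16, and 9 higher and 7 lower by upper-quartile scaling. With GC and length trends removed it was 12 and 9.

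The parental comparison asks how the same genes change with 4-OHT in cells without the fusion. At 8 h 10 members were higher and 10 lower (against 15.0% and 16.0% of all genes), at 24 h 15 and 11 (against 21.2% and 21.7%) and at 48 h 12 and 12 (against 20.4% and 20.1%). Median log2 changes were -0.03, 0.01 and -0.02. These 3 comparisons share the parental 0 h libraries. BDP1 was higher by 0.70, 1.22 and 1.05 in order of time and TAF1B by 0.27, 0.42 and 0.55, while GTF3C5 was at -0.39, -0.40 and -0.50 and POLR1C at -0.26, -0.35 and -0.40, all called. Of these calls, those of TAF1B at 8 h and 24 h and of GTF3C5 at 24 h were lost with the GC trend removed, and the 8 h calls of all 4 genes were lost when only the groups compared were fitted. BDP1 was at 29.1, 46.3 and 18.2 CPM at 0 h and at 72.1, 70.9 and 74.8 CPM at 24 h, and POLR1C at 46.1, 40.6 and 50.1 CPM and 34.4, 39.0 and 33.8 CPM. The 0 h libraries were widely spread in these genes. Of the 24 members higher at 8 h in MYC-ER cells, 7 were also higher in parental cells at 8 h and 4 were lower. Of the 6 lower at 8 h in MYC-ER cells, 3 were also lower in parental cells and 1 was higher. The same combinations were not counted over all genes.

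The parental calls moved with base composition. The members called higher at 8 h had a median GC content of 40.6%, and those called lower 58.5%. At 24 h the medians were 42.5% and 53.2%, and at 48 h 40.6% and 54.1%. Over the 35 members, which share the same libraries, Spearman's rho between GC content and the parental log2 change was -0.79, -0.71 and -0.69 in order of time, against -0.24, -0.27 and -0.31 in MYC-ER cells. With each library's GC trend removed, 4 members were higher and 4 lower at 8 h, 12 and 7 at 24 h, and 9 and 9 at 48 h. In a fit of the 2 groups alone, which estimates the spread from 6 libraries, the counts were 1 and 1, 6 and 6, and 5 and 7. Calls over all genes fell in these settings as well. At 8 h, 3319 of 22158 genes were higher and 3551 lower in the main fit, and 2610 and 2765 with the GC trend removed. In the fit of the 2 groups alone they were 628 and 824 of 19596 at 8 h. They were 2492 and 2431 of 19581 at 24 h, and 1637 and 1637 of 19680 at 48 h. With upper-quartile scaling the 24 h split was 11 and 13, and with GC and length trends removed 7 and 11. The MYC-ER calls at 8 h changed little with the GC trend removed, to 25 higher and 7 lower, with a median of 0.77.

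**Figure D4:**
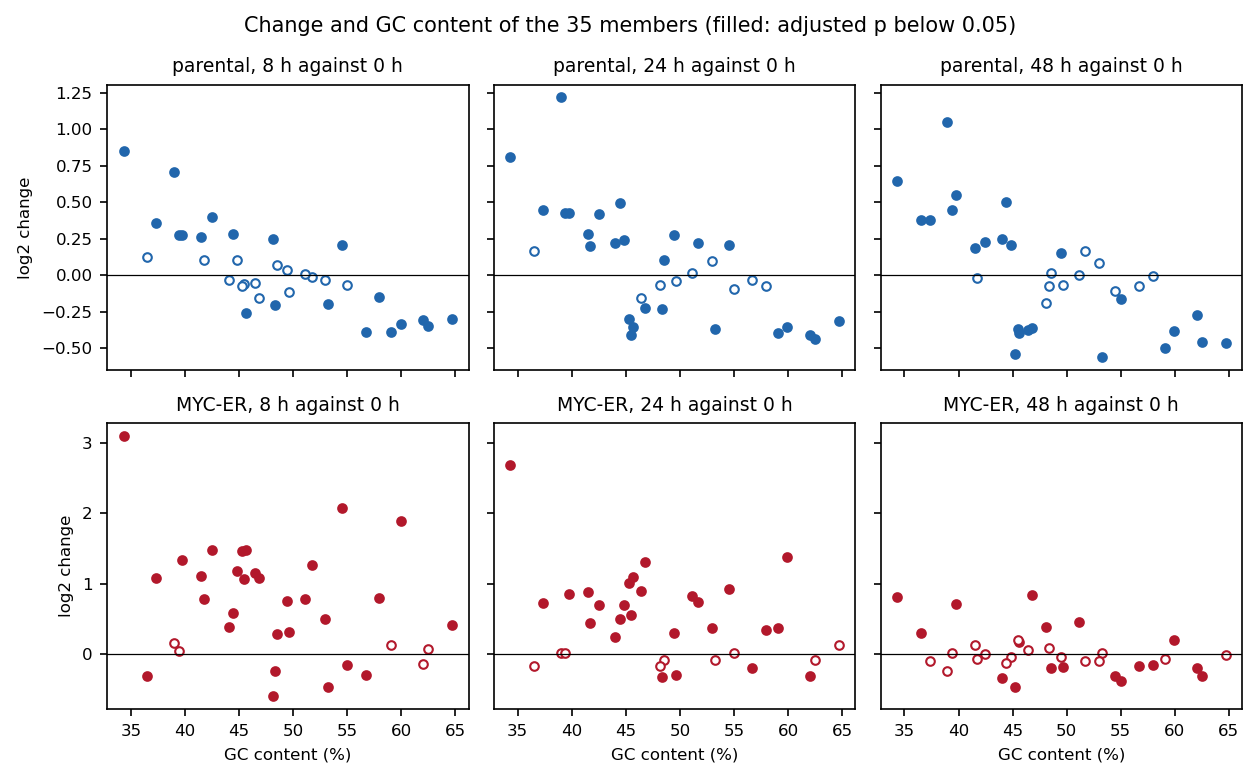
Log2 change from 0 h (vertical axis) against the GC content of the longest transcript in percent (horizontal axis) for the 35 members in parental (blue, top) and MYC-ER cells (red, bottom) at 8, 24 and 48 h, with filled points for edgeR adjusted p below 0.05. Parental changes fall with GC content (rho -0.79 at 8 h), while in MYC-ER cells at 8 h members with a rise lie at all GC contents.

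The interaction is the MYC-ER change less the parental change and tests the difference itself. At 8 h it was positive for 25 members and negative for 3 (against 27.3% and 27.8% of all genes), with a median of 0.71 (all genes -0.08). Among the highest were POLR3G at 2.25, POLR1G at 1.86, POLR1C at 1.74 and POLR3K at 1.54. POLR3GL at -0.84, TAF1D at -0.43 and BRF2 at -0.27 were the 3 negative ones. BRF2 lost its call in 11 alternatives and TAF1D in 2, those with the GC trend removed. Across the alternatives other than leaving out a library, 24 to 26 members were positive. At 24 h the numbers were 20 and 5 (against 27.7% and 26.8%), with GTF3A at 1.53 and POLR3G at 1.87, and by library size alone 23 and 2. At 48 h they were 10 and 9 (against 23.6% and 21.4%). That split was 13 and 5 by library size alone and 12 and 5 by upper-quartile scaling, which moved the median of all genes by 0.10 and 0.08, and 14 and 8 with GC and length trends removed.

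Compared at the same time, the lines differed before any 4-OHT. At 0 h MYC-ER cells had 21 members below and 6 above the parental level (against 32.7% and 31.6% of all genes), a median log2 difference of -0.30 over members and 0.00 over all genes. POLR3K, at 7.75, 8.87 and 8.92 CPM against 23.6, 20.6 and 25.2 CPM, was lower by a log2 difference of -1.44 (SE 0.09, edgeR adjusted p 3.82e-12). GTF3A was at -1.43, GTF3C6 at -1.34 and POLR3G at -1.31. BDP1 was higher by 1.13 (edgeR adjusted p 1.36e-05), although its parental values of 18.2 to 46.3 CPM were widely spread. GTF3A in MYC-ER cells reached 101 to 111 CPM at 8 h, whereas parental cells held 116 to 154 CPM at 0 h.

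At 8 h 23 members were higher in MYC-ER than in parental cells and 4 lower (against 23.1% and 25.5% of all genes), with a median log2 difference of 0.29. POLR1G was highest at 1.00 (SE 0.07, edgeR adjusted p 1.14e-10), at 48.2 to 57.5 CPM against 25 to 29.4. POLR3G at 0.93, POLR1C at 0.80, GTF3C4 at 0.75 and POLR1A at 0.75 came next. GTF3C6, POLR3B, POLR3F, POLR3K and TAF1A were not called, with log2 differences of -0.14, 0.12, 0.08, 0.09 and 0.16, and GTF3A was lower by 0.18. In all, 13 members were lower than parental at 0 h and higher at 8 h (against 8.82% of all genes), and 6 of the 27 calls at 8 h (GTF3A, GTF3C1, POLR1H, POLR3D, TAF1C and TAF1D) were lost in 1 or more alternatives.

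Fewest members differed between the lines at 24 h, with 10 higher and 6 lower (against 23.5% and 25.8% of all genes) and a median of 0.07. This split was 17 and 4 by library size alone and 16 and 5 by upper-quartile scaling, which moved the median of all genes by 0.12 and 0.10, and 16 and 6 with GC and length trends removed. At 48 h, 21 members were again lower in MYC-ER cells and 5 higher (against 29.4% and 27.3%), and 18 were lower at both 0 h and 48 h (against 20.8%). With library size alone or upper-quartile scaling the 48 h numbers were 18 lower and 8 or 7 higher, and the median of all genes moved by 0.14. POLR3K at -1.37, POLR3G at -1.15, TAF1A at -1.13 and POLR1G at -1.06 were lowest, while POLR3GL was higher by 1.05 (SE 0.09, edgeR adjusted p 1.73e-09).

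**Figure D5:**
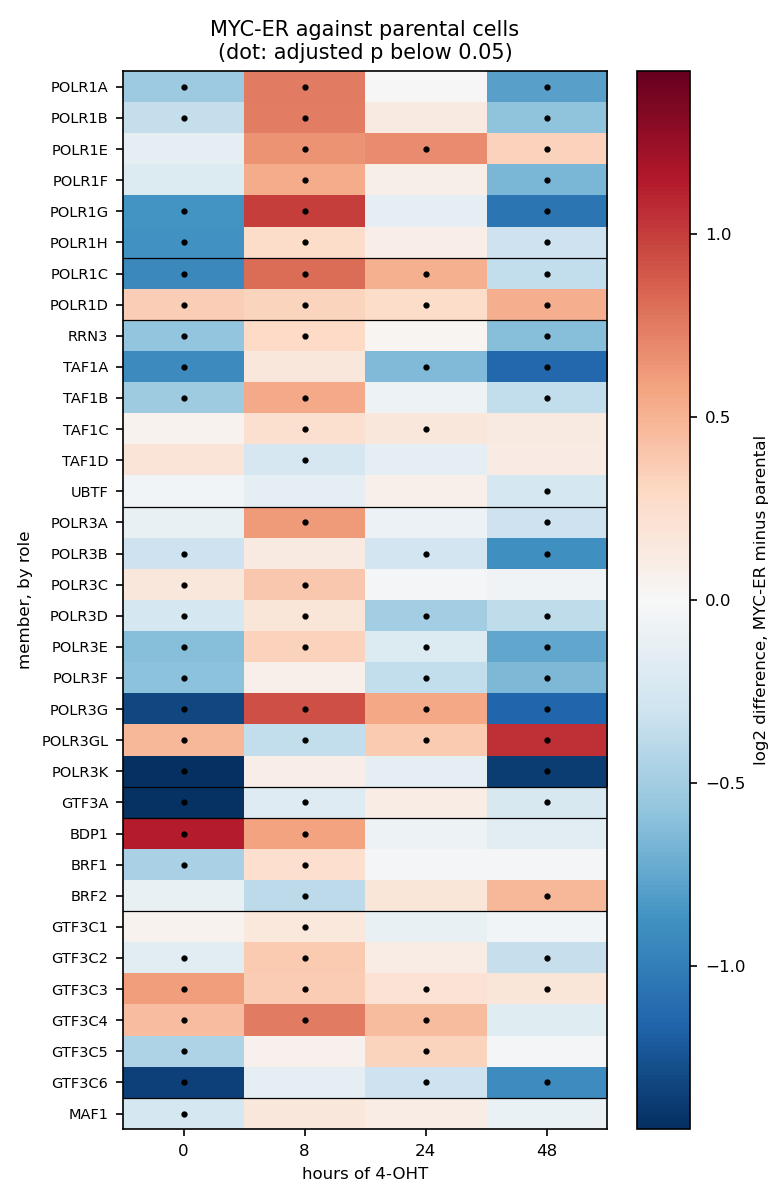
Log2 difference between MYC-ER and parental cells (colour, red for higher in MYC-ER) for 34 of the 35 members (rows, by role) at 0, 8, 24 and 48 h of 4-OHT (columns), with a dot where the edgeR adjusted p was below 0.05. Blue prevails at 0 h and 48 h, with 21 of all 35 members lower at each, and red at 8 h, with 23 higher.

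Genes that work with these enzymes were read from lists, by count and median, where 32.2% of all genes rose and 35.4% fell at 8 h with a median of -0.10. All 5 subunits shared with RNA polymerase II rose at 8 h in MYC-ER cells (median log2 change 0.89), among them POLR2F by 1.11 and POLR2H by 1.08. Of the 7 subunits of RNA polymerase II alone, 6 rose (median 0.49), and POLR2A, the largest, was at -0.12 (edgeR adjusted p 0.161). Of 14 further genes of ribosomal DNA transcription and the nucleolus, 13 rose (median 0.77). LYAR, a nucleolar zinc-finger protein, rose by 3.32, NOLC1, a nucleolar phosphoprotein, by 1.94, and TCOF1, the treacle protein that works with UBTF, by 1.63, while BAZ2A, of the ribosomal DNA silencing complex, was at -0.05 (edgeR adjusted p 0.569).

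Of 10 further genes of RNA polymerase III transcription, 6 rose and 3 fell at 8 h (median 0.23). SSB, the La protein that binds new RNA polymerase III transcripts, rose by 1.37, and SNAPC1 and SNAPC4, of the complex that binds snRNA promoters, by 0.98 and 0.71. SNAPC3 and SNAPC5 fell by 0.28 and 0.51, and POU2F1 fell by 0.63 before it was higher at 24 h by 1.6. TBP, which SL1 and TFIIIB share, rose by 0.22 (SE 0.07, edgeR adjusted p 0.00887). At 48 h the medians of the 4 lists were 0.12, 0.06, -0.02 and 0.07, in the order described. Of their genes 1, 1, 6 and 3 were higher than at 0 h and 1, 2, 3 and 2 lower, where 23.4% of all genes were higher and 20.7% lower.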

How the data were processed

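The deposited table holds counts of reads per gene for 24 libraries, made by the authors. The submitters' processing notes name Trimmomatic 0.39, STAR, StringTie 2.1.3b and the GRCh38 build. Whether counting used strand is not given in the sources used here. Gene symbols and types were matched by Ensembl identifier without version, and lengths and GC content came from GENCODE release 29.

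Counts were fitted with edgeR 4.0.16 (R 4.3.3) on all 24 libraries in 8 groups with TMM scaling, edgeR's expression filter (22158 genes kept) and the quasi-likelihood F test. The 15 contrasts were adjusted by Benjamini and Hochberg over all genes, with a threshold of 0.05, and the script was tested on simulated data. Alternatives used DESeq2 1.42.0, other scalings and filters, GC and length trends removed, only the groups compared, a replicate block and each library left out. The members and lists were chosen with earlier results of these data known. Any member could be named, except that 1 member, which stays in the counts and medians, is not reported here by name. Values in every library were given for POLR3G, POLR3GL, MAF1, RRN3, UBTF, POLR1C and POLR1D, for the 2 largest and the smallest 8 h changes in MYC-ER cells within roles of 3 or more members, for members called against the majority there, and, added after values were seen, for GTF3A. They were also given for POLR3K, which these rules did not pick. Promoter windows of 300 bases came from RefSeq (GRCh38.p14). The binding of other factors and RNA polymerase I and III transcripts were not analysed here.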

Additional observations from a re-analysis of the deposited data

Results flagged for a closer look

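For 31 of the 34 members reported by name the change with 4-OHT differed between the lines in a test of the difference itself, the line by time interaction in edgeR. Of all 22158 genes, 73.6% passed this test at 1 or more of the 3 times. Each member is given at the time with its smallest p, and the values are the MYC-ER log2 change less the parental log2 change. The largest edgeR adjusted p among them was 0.0292. The smallest p was at 8 h for 22 members, 20 with a positive and 2 with a negative difference. Over all 35 members the 8 h interaction was called positive for 25 and negative for 3 (against 27.3% and 27.8% of all genes).

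Among the RNA polymerase I genes and shared subunits the 8 h differences were POLR1A 1.27, POLR1B 1.07, POLR1C 1.74, POLR1F 0.73, POLR1G 1.86, POLR1H 1.13, RRN3 0.85, TAF1A 1.08, TAF1B 1.06 and TAF1D -0.43. Among the RNA polymerase III subunits they were POLR3A 0.72, POLR3C 0.23, POLR3D 0.43, POLR3E 0.95, POLR3F 0.67, POLR3G 2.25, POLR3GL -0.84 and POLR3K 1.54. Among the RNA polymerase III factors and MAF1 they were BRF1 0.71, GTF3C2 0.54, GTF3C6 1.20 and MAF1 0.42. A positive difference can include a parental fall, as for MAF1 and BRF1. Mean MAF1 at 0 h and 8 h was 153 and 161 CPM in MYC-ER cells and 183 and 144 CPM in parental cells. Mean BRF1 was 34.5 and 45.9 CPM in MYC-ER cells and 47.9 and 38.9 CPM in parental cells.

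The 24 h differences given are GTF3A 1.53, GTF3C5 0.78 and POLR1E 0.81. Over all 35 members the 48 h interaction was called positive for 10 and negative for 9 (against 23.6% and 21.4% of all genes). Only members with their smallest p at 48 h are given for that time. They were BDP1 -1.29, BRF2 0.59, GTF3C3 -0.43, GTF3C4 -0.63, POLR3B -0.58 and UBTF -0.21, of which 1 was positive and 5 negative. The parental 0 h libraries varied widely in several of these genes, BDP1 from 18.2 to 46.3 CPM, and their part in the differences was not tested. The UBTF call was lost in 10 alternatives. Its value was -0.11 with library size alone, -0.13 with upper-quartile scaling and -0.21 when only the groups compared were fitted (edgeR adjusted p 0.228, 0.197 and 0.118). The other 7 each left out 1 library (parental 0 h replicate 2, parental 48 h replicate 2 or 3, MYC-ER 0 h replicate 1 or 3, MYC-ER 48 h replicate 1 or 2), with edgeR adjusted p from 0.0502 to 0.0803. The calls of GTF3C3 at 48 h and of MAF1 and TAF1D at 8 h were lost in both alternatives that remove the GC trend, that of GTF3C4 with GC and length trends removed, and that of POLR3C at 8 h with library size alone and with upper-quartile scaling. TAF1C, POLR1D and GTF3C1 passed the test at no time.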

How the results depend on the processing

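The number of members called stayed within 1.5 times the reported number in the alternatives, except in parental cells. There 8 were called at 8 h with the GC trend removed and 2 when only those 2 groups were fitted, and 12 at 24 h and 12 at 48 h when only the groups compared were fitted. Fewer of all genes were called in these settings as well. Leaving out 1 library at a time gave, in MYC-ER cells, 29 to 32, 26 to 27 and 15 to 20 members called in order of time against 0 h, 23 to 28 between 8 h and 24 h and 26 to 30 between 24 h and 48 h. In parental cells it gave 15 to 23, 21 to 27 and 18 to 26, between the lines 27 to 29, 22 to 30, 13 to 20 and 25 to 28, and for the interaction 27 to 30, 23 to 27 and 16 to 24.

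Of single-gene values outside those with a library left out, 4770 kept their direction and call, 212 gained and 243 lost a call, and 25 reversed. With library size alone GTF3C2, POLR3B and TAF1C were at 0.073, 0.054 and 0.038 (MYC-ER, 24 h against 8 h) and POLR3E at 0.015 (48 h against 0 h). With the GC trend removed POLR3E was at 0.022 (parental, 8 h), BRF1 at 0.089 and POLR3F at -0.019 (24 h), RRN3, TAF1C and TAF1D at -0.023, 0.048 and -0.017 (48 h), and MAF1 at 0.0017 (between lines, 0 h). With GC and length trends removed GTF3C2 and TAF1C were at 0.028 and 0.094 (MYC-ER, 24 h against 8 h), MAF1 at 0.12 and GTF3C1 at -0.061 (between lines, 0 h and 8 h), MAF1 and TAF1D at -0.059 and 0.063 (interaction, 24 h), POLR1B at 0.077 (interaction, 48 h), MAF1, POLR1A and POLR1B at 0.014, -0.078 and -0.0033 (parental, 24 h), and POLR1B, POLR3A, RRN3 and TAF1D at -0.0064, -0.040, -0.025 and -0.051 (parental, 48 h). The causes were not tested. Library size alone moved the median of all genes by 0.11 at 24 h against 0 h in MYC-ER cells and by -0.12 in the 8 h interaction. The looser motif CANNTG was in 62.07% of the members' promoters.

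Libraries with the same replicate number did not deviate together (84 pairs, mean r 0.0023, highest 0.0943), and with the replicate number as a block 520 of 525 calls were the same and 5 were lost. Every member had at least 868 counts in every library, and the number of libraries, 3 a group, limits the precision as well.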

Other observations

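The printed promoter window of POLR3E holds ggttcgaatcc, the B box of transfer RNA genes, which is bound by TFIIIC. It begins 209 bases before the start site. The motif GGTTCGANNCC was then searched on both strands in all RefSeq windows, a search chosen after the sequence had been read. It was in 2 of the 29 windows of members (6.9%), POLR3E and TAF1C, and in 0.198% of all 27305 windows. In TAF1C it lies on the other strand, 174 bases before the start, as GGATTCGAACC in the gene's sense direction. POLR3E encodes a subunit of RNA polymerase III and TAF1C a subunit of SL1. Whether a transfer RNA gene is transcribed at either place was not measured here.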
